A study of Mus musculus with 24 samples.

Results

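Cytochrome P450 enzymes of family 2 and the reductase that powers them were followed in mouse lung organoids: Cyp2b10, Cyp2f2, Cyp2s1, Cyp2j6, Cyp2a5, Cyp2e1, Cyp2d22 and Por. These 8 genes were taken by symbol from a count table of 49280 features, which held 57 genes named Cyp2 and a letter and 116 genes named Cyp. Cyp2b10 was chosen because of its response to the drug treatment in these libraries, so its drug response is given below as a description. Where a count of calls includes it for the drugs, nothing is read from that count. The other members were chosen by family with results of the same libraries known.

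The organoids were grown in a basement membrane gel from freshly isolated lung epithelial cells of wild-type (WT) mice, mixed with CCL206, a mouse lung fibroblast line. For the first 14 days cultures had vehicle or 5% cigarette smoke extract (CSE). They were then dissociated, and the epithelial cells were plated again, in equal numbers, with new CCL206 cells, with vehicle or with 100 nM tanimilast and 100 nM formoterol until day 28. Tanimilast inhibits phosphodiesterase 4, which breaks down cyclic AMP, and formoterol activates the beta-2 adrenoceptor, which raises it. RNA was sequenced from Epcam+ cells, labelled as epithelial (Epi), and from Epcam- cells, labelled as fibroblasts (Fib). The 4 treatments are written Veh (vehicle throughout), CSE (smoke extract, then vehicle), TF (vehicle, then both drugs) and CSETF (smoke extract, then both drugs). With 2 fractions and 3 mice this gave 24 libraries in 8 groups of 3, each library named below by its mouse. The drugs were given together, so their effects cannot be told apart. The added fibroblasts were a single line, so the 3 mice are separate animals only for the epithelial cells, and no source here states the age of the mice.

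Cytochrome P450 enzymes are heme proteins of the endoplasmic reticulum that add oxygen to drugs, fatty acids and inhaled chemicals, with electrons passed on by the reductase Por. In liver, Cyp2b10 is the classic target of the constitutive androstane receptor (CAR, gene Nr1i3), and its relative PXR (Nr1i2) shares many targets. In lung, enzymes of this family are best known from club cells, the secretory cells of the airway lining, where Cyp2f2 turns inhaled compounds such as naphthalene into toxic products.

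The sequence just upstream of the gene start is shown for Cyp2b10 and for 2 other members, Cyp2f2 and Cyp2s1, whose differences after CSE in the fibroblast fraction had the same sign as that of Cyp2b10. Each run is the 250 bases before the start annotated by RefSeq, on the gene's own strand, in assembly GRCm38.p6. The positions are chr7:25897408-25897657 on the plus strand for Cyp2b10, chr7:27119705-27119954 on the plus strand for Cyp2f2 and chr7:25816526-25816775 on the minus strand for Cyp2s1. Capitals mark matches to the motifs described after the sequences.
Cyp2b10: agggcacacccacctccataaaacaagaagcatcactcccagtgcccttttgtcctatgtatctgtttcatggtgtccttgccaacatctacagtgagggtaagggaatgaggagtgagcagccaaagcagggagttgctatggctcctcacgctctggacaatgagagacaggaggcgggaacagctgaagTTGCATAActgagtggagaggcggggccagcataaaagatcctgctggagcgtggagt
Cyp2f2: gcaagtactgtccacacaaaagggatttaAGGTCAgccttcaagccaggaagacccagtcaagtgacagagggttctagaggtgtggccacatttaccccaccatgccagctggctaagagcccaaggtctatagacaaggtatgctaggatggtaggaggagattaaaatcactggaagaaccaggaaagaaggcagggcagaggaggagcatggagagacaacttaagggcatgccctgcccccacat
Cyp2s1: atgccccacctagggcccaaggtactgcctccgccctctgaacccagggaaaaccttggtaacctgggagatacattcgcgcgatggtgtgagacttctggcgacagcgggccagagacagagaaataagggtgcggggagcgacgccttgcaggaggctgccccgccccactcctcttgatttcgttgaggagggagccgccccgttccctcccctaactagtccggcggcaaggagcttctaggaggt
Of the 8 members, 7 had an entry in this promoter table, and Cyp2d22 did not. The searched motifs were TGACGTCA, the full cyclic AMP response element, and its core TGACG, which lies within it. Further searches were for AGGTCA, a hexamer bound by nuclear receptors, TGCGTG, the core of the aryl hydrocarbon receptor site, and TTGCNNAA, a core bound by C/EBP factors, all on both strands, and for TATAAA, the TATA box, on the gene strand. The C/EBP core was added after these sequences had been seen. Over the first annotated start of all 27025 genes in the table, the same window held TGACGTCA in 1.62%, TGACG in 17.9%, AGGTCA in 13.8%, TGCGTG in 6.79%, TTGCNNAA in 9.55% and TATAAA in 8.12%. Cyp2b10 held the C/EBP core, at position -58 from the gene start, and none of the other motifs in this window. Cyp2f2 held AGGTCA, at position -221, and Cyp2s1 held none of the motifs. Among members not printed, Cyp2a5 held the C/EBP core and TATAAA, and Cyp2e1 held TATAAA.

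In the RefSeq assembly Cyp2b10 lies on chromosome 7, as do Cyp2f2, Cyp2s1, Cyp2a5 and Cyp2e1, while Cyp2j6 lies on chromosome 4 and Por on chromosome 5. In the GENCODE M21 order of protein-coding genes, Cyp2s1 is next to Cyp2b10 on one side, followed by Axl, Hnrnpul1, Ccdc97 and Tgfb1, and Cyp2b13 and Cyp2b9 are the next on the other. No 100-base window of the Cyp2b10, Cyp2f2, Cyp2s1, Cyp2j6 or Por transcript occurred in another gene's transcript. Cyp2a5 shared 14.4% of its windows, mostly with Cyp2a4, Cyp2e1 shared 1.5% and Cyp2d22 shared 0.225%, with Cyp2d26. Gm15883 is antisense to Cyp2f2 and had 14 to 246 counts in a library, against at least 7005 for Cyp2f2, and reads of the pair cannot be told apart if counting ignored strand. Gm26707, on the opposite strand of Cyp2s1, had 0 to 14 counts.

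Library depth ran from 31832267 to 47534709 counts. Levels are read counts scaled to the size of each library by the TMM method and given as CPM, and differences are log2 fold changes with their standard error (SE) from edgeR's quasi-likelihood test. A gene is called when its p-value, adjusted by the Benjamini-Hochberg method over all genes tested, is under 0.05. The labelled fractions differed by their markers, with each of 14 epithelial identity genes called higher in Epi and each of the 11 tested of 12 fibroblast genes called higher in Fib. The Fib libraries still held epithelial RNA: Epcam averaged 440 CPM (SD 135, n = 12) there, against 1261 CPM (SD 299, n = 12) in Epi. One library stood apart, FibCSE of mouse 1, with 2145 CPM of the collagen gene Col1a1 against 232 to 990 CPM in the other Fib libraries. In these bulk samples, a different share of a cell type and a different amount of RNA per cell cannot be told apart.

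Cyp2f2 and Por had the highest levels of the 8 genes, and Cyp2a5 and Cyp2e1 were nearly absent. Scaled by coding length, Cyp2f2 averaged 686 CPM per kilobase (SD 401, n = 12) in Epi and 448 (SD 328, n = 12) in Fib. Here n counts libraries, which are 4 treatments of the same 3 mice, so each SD holds treatment and mouse differences together. Por averaged 390 CPM per kilobase (SD 40.9, n = 12) in Epi and 420 (SD 51.5, n = 12) in Fib, so these neighbours in the order did not differ beyond the spread of Cyp2f2. Cyp2s1, an enzyme of epithelia that is also a target of the aryl hydrocarbon receptor, came next with 92.4 CPM per kilobase (SD 29.7, n = 12) in Epi and 61.2 (SD 36.6, n = 12) in Fib. Cyp2j6, of a subfamily that makes epoxides of arachidonic acid, followed with 36.2 CPM per kilobase (SD 5.64, n = 12) in Epi and 19.6 (SD 2.42, n = 12) in Fib. Cyp2b10 averaged 3.94 CPM per kilobase (SD 1.79, n = 12) in Epi and 2.59 (SD 1.86, n = 12) in Fib. Cyp2d22, of the subfamily that in humans clears many basic drugs, averaged 1.10 CPM per kilobase (SD 0.448, n = 12) in Epi and 6.25 (SD 2.24, n = 12) in Fib. On these means over 12 libraries the order of the last genes was opposite in the fractions, with Cyp2b10 above Cyp2d22 in Epi and below it in Fib. Within Fib the order varied with treatment. FibCSETF had Cyp2b10 at 5.54 CPM per kilobase (SD 0.852, n = 3) and Cyp2d22 at 4.54 (SD 0.439, n = 3). In mouse 2 of that group Cyp2d22 was the higher, at 7.40 CPM against 7.19 CPM. The other Fib groups had Cyp2d22 above Cyp2b10.

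Cyp2a5, which activates nicotine-derived and other small carcinogens, and Cyp2e1, which oxidises ethanol and other small molecules, had too few counts for edgeR's expression filter and were not tested. Cyp2a5 had 0 counts in 3 of 12 Epi and 6 of 12 Fib libraries, at most 13 counts in a library, and at most 0.316 CPM. Cyp2e1 had 0 counts in all 12 Epi libraries, where 3 counts would be 0.0631 to 0.0836 CPM. In Fib it had 2 counts in each of 3 libraries, 1 each of FibVeh, FibCSE and FibTF, and 0 in the other 9. At this depth no treatment difference of these 2 genes was detectable.

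Cyp2b10 was lowest in untreated fibroblast libraries and highest in both fractions after CSE followed by the drugs. In Epi, its level was 3.95, 4.59 and 3.05 CPM in EpiVeh (mice 1, 2 and 3) and 4.25, 2.83 and 3.40 CPM in EpiCSE. With drugs it was 7.70, 6.24 and 5.97 CPM in EpiTF and 9.24, 10.8 and 8.84 CPM in EpiCSETF. All 6 drug-treated Epi libraries lay above all 6 without drugs, EpiCSETF lay above EpiTF without overlap, and EpiVeh and EpiCSE overlapped.

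In Fib, Cyp2b10 was at 1.75, 1.77 and 1.69 CPM in FibVeh and 2.01, 1.96 and 3.04 CPM in FibCSE. With drugs it was 3.51, 3.12 and 2.89 CPM in FibTF and 8.03, 7.19 and 9.70 CPM in FibCSETF. FibCSE of mouse 3 reached into the range of FibTF, and each of the other pairs of Fib groups was separate. These levels rested on 57 to 444 counts of Cyp2b10 per library.

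**Figure D1:**
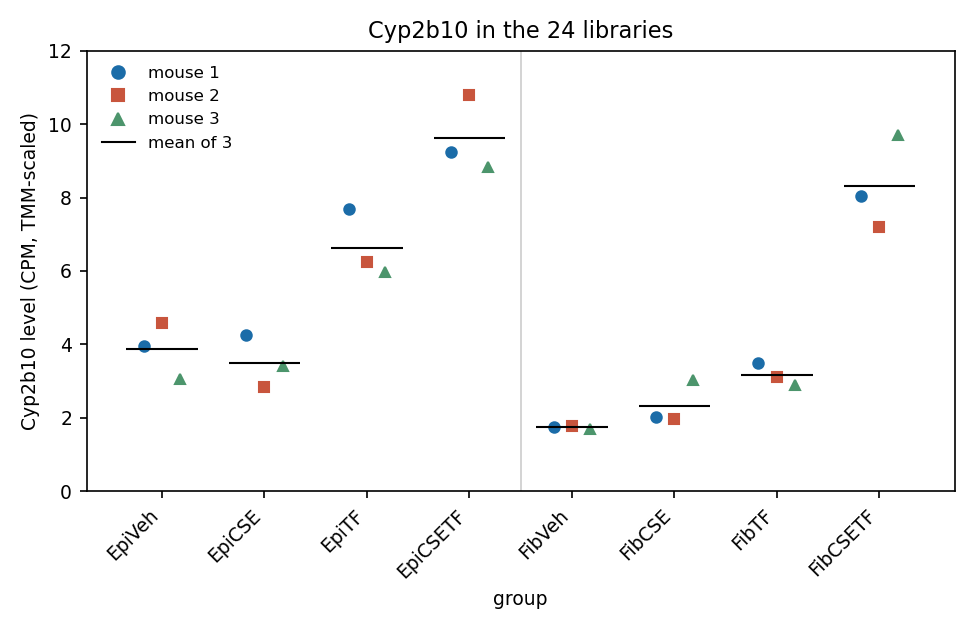
Cyp2b10 level in CPM (linear axis, TMM-scaled library sizes) in each of the 24 libraries, by group, with a symbol for each mouse and a line at the mean of 3. The FibVeh libraries sit between 1.69 and 1.77 CPM, and the EpiCSETF libraries, the highest group, between 8.84 and 10.8 CPM.

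Ordered by mean level, the groups were FibVeh (1.74 CPM, SD 0.0437, n = 3), FibCSE (2.33, SD 0.610, n = 3), FibTF (3.17, SD 0.310, n = 3), EpiCSE (3.49, SD 0.712, n = 3), EpiVeh (3.86, SD 0.773, n = 3), EpiTF (6.64, SD 0.931, n = 3), FibCSETF (8.31, SD 1.28, n = 3) and EpiCSETF (9.62, SD 1.03, n = 3). Neighbours in this order overlapped in range except at 2 steps, from FibVeh to FibCSE and from EpiVeh to EpiTF.

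The log2 fold change of Cyp2b10 with drugs, which chose the gene, was compared after and without CSE. Its log2 fold change with drugs was 0.78 ± 0.20 (SE) without CSE and 1.46 ± 0.20 after CSE in Epi. In Fib it was 0.87 ± 0.20 without CSE and 1.83 ± 0.20 after CSE, which is 3.55-fold. Each of these 4 differences was positive in 3 of 3 mice. The response after CSE minus that without it was 0.68 ± 0.28 in Epi, with 0.16, 1.47 and 0.41 in mice 1, 2 and 3, so mouse 2 was well above the others, and without mouse 2 it was 0.29 ± 0.31. In Fib this difference was 0.96 ± 0.29, with 0.99, 1.05 and 0.90 in the 3 mice, which lay close together. Since the drug contrasts chose the gene, these differences too are a description. Averaged over CSE, the drug effect was 1.12 ± 0.14 in Epi and 1.35 ± 0.14 in Fib. The Epi effect minus the Fib effect was -0.24 ± 0.20.

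Cyp2b10 was also set against Epcam in the same library, since epithelial marker levels differed between Fib libraries. The 14 epithelial identity genes had a median log2 fold change of 0.47 with drugs in Fib, averaged over CSE, against 0.00 for all genes, with 0 called by edgeR and 10 at an unadjusted p under 0.05, beside 14.9% of all genes at that level. Their summed level was 3581 to 5029 CPM in FibVeh, 3334 to 4553 in FibCSE, 4227 to 6828 in FibTF and 4370 to 6862 in FibCSETF, and no gene of the list was at 0 in a whole group. Per 1000 Epcam reads, Cyp2b10 had 4.65, 5.60 and 2.99 reads in FibVeh and 7.34, 7.56 and 7.74 in FibCSE. It had 8.79, 4.67 and 5.07 reads per 1000 Epcam reads in FibTF and 20.7, 15.5 and 15.8 in FibCSETF. On this scale FibTF overlapped FibVeh, FibCSE lay above FibVeh, and FibCSETF lay above every other library. Epcam, the marker used to separate the fractions, was itself lower in FibCSE (274, 259 and 393 CPM) than in FibVeh (376, 317 and 566 CPM) in each mouse. That lower level enters the ratio of FibCSE.

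In Epi, Cyp2b10 had 2.84, 5.00 and 1.79 reads per 1000 Epcam reads in EpiVeh and 3.28, 3.55 and 3.23 in EpiCSE. It had 5.43, 4.93 and 3.39 in EpiTF and 7.02, 11.6 and 6.83 in EpiCSETF. EpiCSETF lay above the other Epi groups, and EpiTF overlapped EpiVeh through mouse 2 of EpiVeh and mice 2 and 3 of EpiTF. With the mean log2 level of the epithelial identity genes as a covariate, the averaged drug difference of Cyp2b10 in Fib was 1.24 ± 0.18 and the difference after CSE 1.69 ± 0.24. In Epi, the 10 tested fibroblast genes had a median log2 fold change of -0.59 with drugs. Of these 0 were called by edgeR, beside 0.00554% of all genes, so a call was rare here. With the level of the fibroblast genes as a covariate the averaged drug difference of Cyp2b10 in Epi was 1.13 ± 0.15. Goblet cell genes summed to 82.7 to 148 CPM in FibVeh against 136 to 315 in FibTF, and to 137 to 416 CPM in EpiVeh against 269 to 676 in EpiTF. After CSE the sums were 111 to 151 CPM in FibCSE against 184 to 275 in FibCSETF, and 123 to 240 in EpiCSE against 216 to 484 in EpiCSETF, so the groups overlapped in every pair but FibCSE and FibCSETF. With drugs in Fib, averaged over CSE, 1 of 9 tested goblet genes rose beside 0.109% of all genes, the mucin gene Muc5b (2.00 ± 0.30, adjusted p = 0.0408 by edgeR), named after its values were seen, which is also the 1 of 14 club cell genes that rose. No goblet gene was at 0 in a whole group. The part of these markers in the response was not tested beyond these values.

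**Figure D2:**
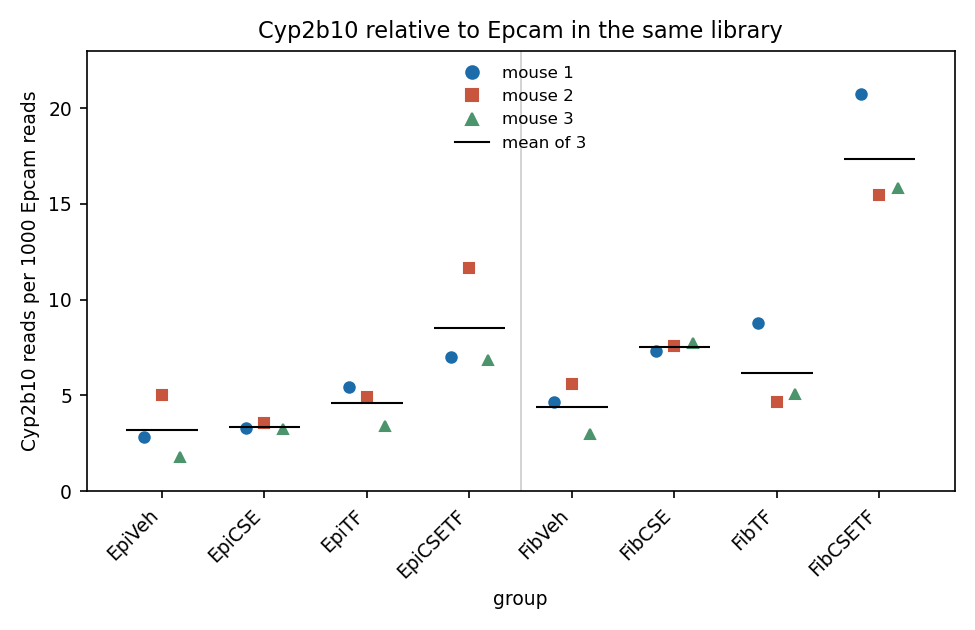
Cyp2b10 reads per 1000 Epcam reads (linear axis) in each of the 24 libraries, by group, with a symbol for each mouse and a line at the mean of 3. The FibCSETF libraries, at 15.5 to 20.7, lie above all others, while FibTF overlaps FibVeh.

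After CSE, averaged over drugs, Cyp2b10 and Cyp2s1 were called higher and Cyp2d22 lower in Fib, and no member was called in Epi. These calls are from the edgeR fits without a mouse block. With mouse as a block Cyp2f2 was called higher in Fib as well, as given below. In Fib, averaged over the drug treatments, 3 of the 6 tested members were called, 2 higher and 1 lower, beside 4.01% of all genes tested (1.83% higher and 2.18% lower). Without Cyp2b10, whose selection used the same libraries, 2 of the 5 others were called. In Epi, averaged likewise, 0 of 6 members were called by edgeR and 0 by DESeq2, beside 0.00554% of all genes by edgeR and 1.05% by DESeq2. At an unadjusted p under 0.05 there was 1 of 6 members, beside 8.38% of all genes. The Fib and Epi effects of CSE were also compared directly, and no member was called for that difference by either tool, beside 0% of all genes by edgeR and 0.397% by DESeq2. At an unadjusted p under 0.05 there were 2 of 6 members, beside 8.63% of all genes.

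Cyp2b10 was 1.90-fold higher after CSE in Fib (log2 fold change 0.93 ± 0.14, adjusted p = 0.0101 by edgeR), in 3 of 3 mice. This contrast uses the same 12 Fib libraries, FibCSETF included, as the drug contrasts that chose the gene, so it is not independent of that choice. Without drugs, where FibCSE is compared with FibVeh alone, its log2 fold change was 0.45 ± 0.21 (adjusted p = 0.383 by edgeR), and under drugs it was 1.40 ± 0.20 (adjusted p = 0.0572 by edgeR, 0.0276 with mouse as a block). Without drugs, 0 of 6 members were called by edgeR and 1, Cyp2d22, by DESeq2, beside 0.104% and 3.29% of all genes, and 2 had an unadjusted p under 0.05, beside 13.3% of all genes. Under drugs, 0 of 6 were called by edgeR and 3 by DESeq2, Cyp2b10 among them, beside 0% and 2.17% of all genes, and 4 had an unadjusted p under 0.05, beside 11.8% of all genes. In Epi the averaged effect of CSE on Cyp2b10 was 0.20 ± 0.14 (adjusted p = 0.749 by edgeR), and the Epi effect minus the Fib effect was -0.73 ± 0.20 (adjusted p = 0.322 by edgeR), negative in 3 of 3 mice. The averaged call in Fib was lost without mouse 2 (1.01 ± 0.19, adjusted p = 0.0721) and without mouse 3 (0.71 ± 0.17, adjusted p = 0.471).

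Cyp2s1, the gene next to Cyp2b10 on chromosome 7, had 43.7, 67.4 and 40.7 CPM in FibVeh and 58.9, 100 and 123 CPM in FibCSE. It had 48.8, 93.8 and 46.6 CPM in FibTF and 89.4, 203 and 188 CPM in FibCSETF. Each mouse was higher after CSE in both pairs, while the ranges of the groups with and without CSE overlapped, since mouse 1 was the lowest after CSE and mouse 2 the highest without it. Its averaged log2 fold change in Fib was 1.14 ± 0.27 (adjusted p = 0.0457 by edgeR), in 3 of 3 mice, with 0.92 ± 0.38 without drugs (adjusted p = 0.334) and 1.36 ± 0.38 under drugs (adjusted p = 0.223). The averaged call lay close to the threshold. It was lost in 12 of the 15 fits that left out a mouse or a library, with adjusted p up to 0.607 without mouse 3: without any of the 3 mice, any FibVeh library, FibCSE or FibCSETF of mouse 2 or 3, or FibTF of mouse 1 or 3. It was also lost without the filter on low counts (adjusted p = 0.143).

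In Epi, Cyp2s1 was at 107, 152 and 80.5 CPM in EpiVeh, 149, 112 and 126 in EpiCSE, 113, 147 and 97.4 in EpiTF and 157, 250 and 174 in EpiCSETF. The EpiCSETF libraries lay above all other Epi libraries. The averaged effect of CSE in Epi was 0.45 ± 0.17 (adjusted p = 0.549 by edgeR), positive in 3 of 3 mice and not called.

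Cyp2d22 was the called member that fell after CSE in Fib. It had 13.7, 10.8 and 13.0 CPM in FibVeh and 5.48, 7.82 and 5.60 CPM in FibCSE, 15.0, 8.73 and 11.8 CPM in FibTF and 6.94, 7.40 and 6.10 CPM in FibCSETF. Every FibCSE library lay below every FibVeh library, and every FibCSETF library below every FibTF library. The averaged log2 fold change in Fib fell by 0.88 (SE 0.15, adjusted p = 0.0139 by edgeR), lower in 3 of 3 mice. It was -0.97 ± 0.21 without drugs (adjusted p = 0.108, and 0.0461 with the epithelial covariate) and -0.79 ± 0.21 under drugs (adjusted p = 0.204). The averaged call was lost without mouse 1 (adjusted p = 0.0607) and without mouse 3 (adjusted p = 0.523). Markers of other cell types that are higher in Fib were read beside it. The 12 fibroblast genes summed to 1978 to 2387 CPM in FibVeh and 1834 to 5419 in FibCSE. They summed to 1352 to 2102 CPM in FibTF and 1150 to 2849 in FibCSETF, with overlap in each pair and 1 gene at 0 in FibTF. Of the 11 tested, 0 were called for CSE, beside 4.01% of all genes. The 8 neuroendocrine genes, of which 1 to 3 were at 0 in each Fib group, summed to 116 to 154 CPM in FibVeh and 56.7 to 97.7 in FibCSE. They summed to 90.4 to 114 CPM in FibTF and 66.0 to 81.4 in FibCSETF, lower after CSE without overlap in both pairs. The share of all genes that separate likewise was not computed, so nothing is read from that. In EpiVeh the same genes summed to only 16.2 to 29.3 CPM, and their sum in Fib is not read as an amount of neuroendocrine cells. Only 2 neuroendocrine genes were tested in Fib, and 1 fell, Uchl1 (-0.62 ± 0.13, adjusted p = 0.0311). Of 6 smooth muscle genes 1 fell, Des (-0.48 ± 0.10, adjusted p = 0.0271). Both were named after their values were seen and are read beside 2.18% of all genes that fell. The smooth muscle genes summed to 44.4 to 56.3 CPM in FibVeh, 34.5 to 383 in FibCSE, 37.0 to 42.9 in FibTF and 26.0 to 152 in FibCSETF. The part of these markers in the fall of Cyp2d22 was not tested. In Epi, Cyp2d22 had only 0.812 to 3.28 CPM, and its averaged effect of CSE was 0.16 ± 0.31 (adjusted p = 0.913).

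Cyp2f2, the naphthalene-activating enzyme of club cells, differed widely between mice. In Fib it had 289, 705 and 208 CPM in FibVeh, 348, 1086 and 877 in FibCSE, 279, 612 and 222 in FibTF and 461, 1848 and 984 in FibCSETF. Mouse 2 was the highest in every group, and each mouse was higher after CSE in both pairs. Its averaged log2 fold change after CSE in Fib was 1.28 ± 0.44 (adjusted p = 0.132 by edgeR), and with mouse as a block it was 1.26 ± 0.25 and called (adjusted p = 0.0218), positive in 3 of 3 mice. It was 0.97 ± 0.62 without drugs (adjusted p = 0.538) and 1.58 ± 0.63 under drugs (adjusted p = 0.380). In Epi, Cyp2f2 had 635, 1704 and 416 CPM in EpiVeh, 641, 1385 and 1009.95 in EpiCSE, 629, 1083 and 422 in EpiTF and 762, 2434 and 1008 in EpiCSETF. These groups overlapped, and the averaged effect of CSE was 0.56 ± 0.41 (adjusted p = 0.759).

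Markers of epithelial cell types moved with CSE in the same Fib libraries. Of 14 club cell genes that are not members, 6 rose in Fib after CSE, averaged over drugs, with a median log2 fold change of 1.34 over the list against 0.02 over all genes. The share of all genes that rose was 1.83% in this contrast, and it is the background of the list counts that follow. Their summed level was 1646 to 3545 CPM in FibVeh, 2649 to 6324 in FibCSE, 1776 to 4048 in FibTF and 3274 to 7571 in FibCSETF. Scgb1a1, the defining secretoglobin of club cells, was the member of that list with the largest rise, at 4.54 (adjusted p = 0.00663). Of 10 alveolar type 2 genes, 7 rose, with a median of 1.85, and their summed level was 369 to 502 CPM in FibVeh, 661 to 2072 in FibCSE, 342 to 649 in FibTF and 996 to 2400 in FibCSETF. Of 8 alveolar type 1 genes 3 rose, of 8 basal cell genes 2 rose, and of 14 epithelial identity genes 0 were called, with a median of 0.07 and 3 at an unadjusted p under 0.05, beside 21.2% of all genes at that level. In Epi, averaged likewise, 0 of 14 club cell and 0 of 10 alveolar type 2 genes were called by edgeR, beside 0.00554% of all genes. At an unadjusted p under 0.05 there were 6 club cell and 7 alveolar type 2 genes, beside 8.38% of all genes. Scgb1a1 was at 13.7 to 87.8 CPM in EpiVeh, 111 to 457 in EpiCSE, 11.5 to 31.6 in EpiTF and 127 to 370 in EpiCSETF. No gene of the club, alveolar and identity lists was at 0 in a whole group. With the epithelial identity covariate the averaged effect of CSE in Fib was 0.90 ± 0.14 for Cyp2b10 (adjusted p = 0.008), 0.99 ± 0.20 for Cyp2s1 (adjusted p = 0.0233), -0.83 ± 0.14 for Cyp2d22 (adjusted p = 0.00976) and 1.11 ± 0.44 for Cyp2f2 (adjusted p = 0.175). The part of the club and alveolar markers in these values was not tested. Without the FibCSE library of mouse 1, which was high in Col1a1, these 4 values were 0.97 ± 0.15, 1.25 ± 0.27, -0.84 ± 0.16 and 1.45 ± 0.44, with adjusted p of 0.00798, 0.0306, 0.0185 and 0.0861. For Cyp2b10 both fits used libraries of the drug contrasts that chose it, so its values are not independent of that choice.

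Cyp2j6 and Por did not pass the test for CSE. Cyp2j6 had 25.4 to 31.2 CPM in FibVeh, 25.4 to 25.9 in FibCSE, 26.9 to 36.7 in FibTF and 30.3 to 33.0 in FibCSETF, and its averaged log2 fold change was -0.06 ± 0.08 in Fib (adjusted p = 0.698) and -0.18 ± 0.12 in Epi (adjusted p = 0.735). Por had 587 CPM in FibCSE of mouse 1 and 756 to 1017 CPM in the other Fib libraries, with an averaged log2 fold change of -0.05 ± 0.10 in Fib (adjusted p = 0.8) and 0.07 ± 0.08 in Epi (adjusted p = 0.828). Without FibCSE of mouse 1 the Fib value was 0.02 ± 0.07. The electron carriers and heme enzymes that serve these proteins were 17 genes including Por. Of these Hmox1, which breaks heme down, fell by 0.40 after CSE in Fib (SE 0.07, adjusted p = 0.0127 by edgeR), and no other was called. This 1 of 17 is near the share of all genes called in that contrast, 4.01% (2.18% lower).

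**Figure D3:**
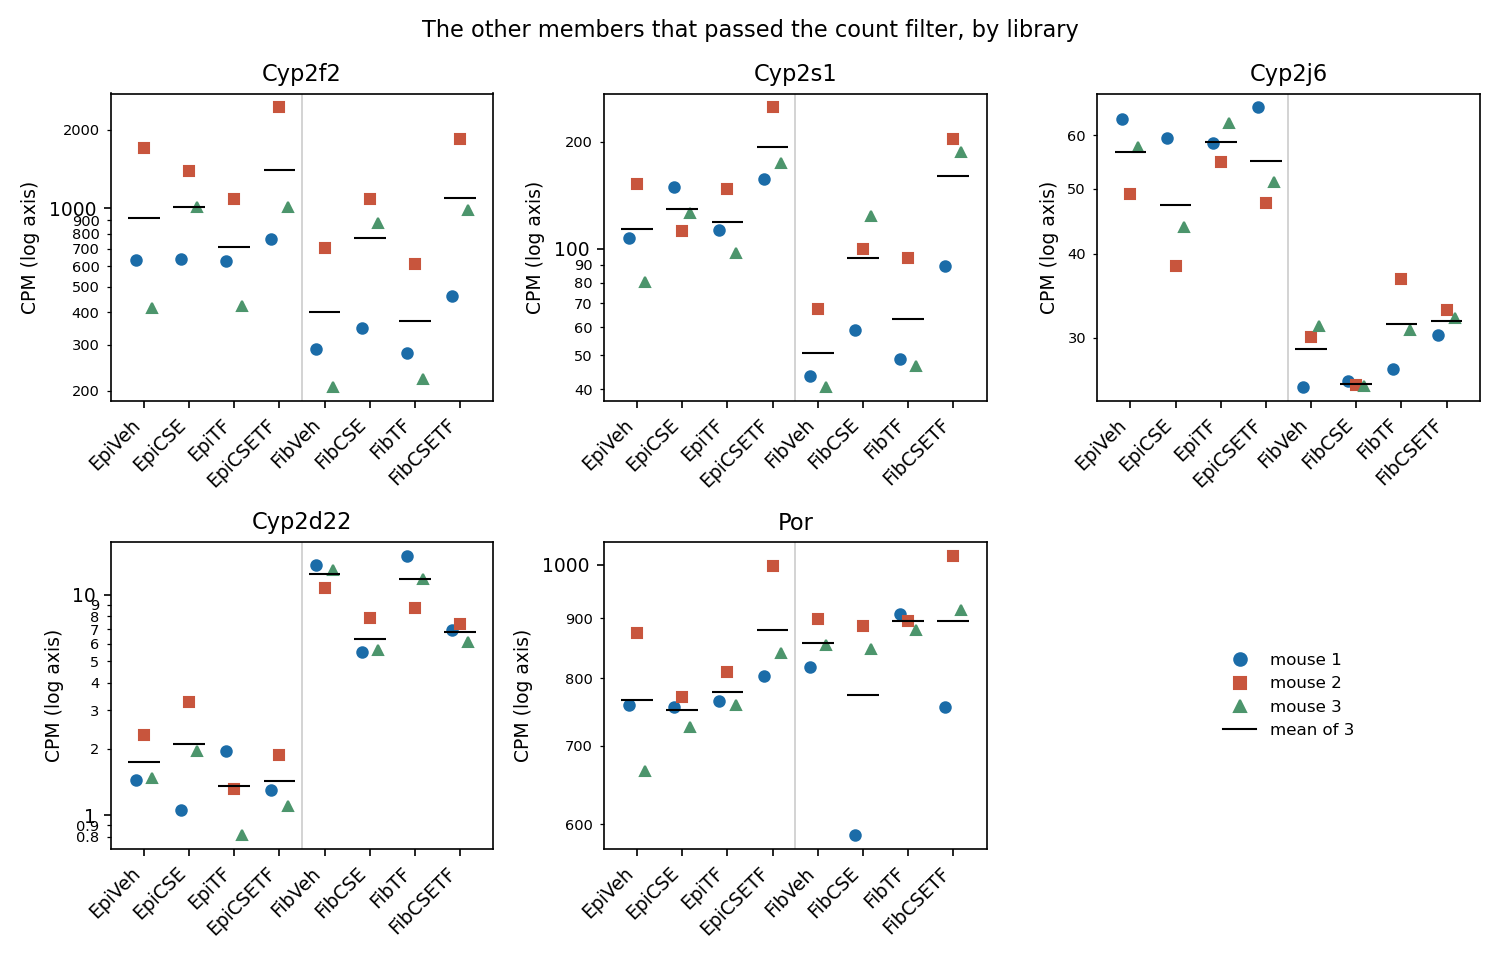
Levels of the 5 other tested members in CPM (log axes that differ between panels) in each of the 24 libraries, by group, with a symbol for each mouse and a line at the mean of 3. Cyp2d22 is higher in every Fib library, from 5.48 CPM, than in any Epi library, up to 3.28 CPM, and Cyp2f2 is highest in mouse 2 in every group.

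Of the 5 tested members other than Cyp2b10, 0 were called for the drugs by edgeR. In Fib this was beside 0.109% of all genes averaged over CSE, 0.0109% after CSE and 0.00547% without CSE. At an unadjusted p under 0.05 there was 1 of the 5 averaged over CSE, beside 14.9% of all genes, 1 after CSE, beside 10.4%, and 0 without CSE, beside 6.30%. DESeq2 called 0 of the 5 averaged over CSE, beside 3.88% of all genes. The log2 fold change of Cyp2s1 was 0.54 ± 0.27 (adjusted p = 0.375 by edgeR), positive in 3 of 3 mice, and turned to -0.11 ± 0.26 with the epithelial covariate. Cyp2j6 was at 0.22 ± 0.08 (adjusted p = 0.225), Cyp2f2 at 0.20 ± 0.44 (adjusted p = 0.866), Cyp2d22 at 0.02 ± 0.15 (adjusted p = 0.973) and Por at 0.14 ± 0.10 (adjusted p = 0.551). In Epi, averaged over CSE, 0 of the 5 were called, by edgeR beside 0.00554% of all genes and by DESeq2 beside 0.344%, and 0 had an unadjusted p under 0.05, beside 6.31% of all genes. There Cyp2s1 was at 0.33 ± 0.17 (adjusted p = 0.809), Cyp2d22 at -0.46 ± 0.31 (adjusted p = 0.857), Cyp2j6 at 0.13 ± 0.12 (adjusted p = 0.897), Por at 0.12 ± 0.08 (adjusted p = 0.839) and Cyp2f2 at 0.05 ± 0.41 (adjusted p = 0.995). No member's drug effect was called as different between the fractions by edgeR or DESeq2, beside 0% and 0.00522% of all genes, and 0 had an unadjusted p under 0.05, beside 2.61% of all genes.

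The fractions differed in 4 of the 6 tested members, 3 higher in Epi and 1 lower, beside 68.9% of all genes (34.7% higher and 34.2% lower), so a call was the usual outcome here. With mouse as a block all 6 were called. The share of all genes called with the block is not given here, so nothing is read from that count. Cyp2d22 had the largest difference of the 6, with an Epi minus Fib log2 fold change of -2.47 ± 0.18 (adjusted p = 8.4e-10 by edgeR), lower in Epi in each of 12 cultures. Cyp2j6 was higher in Epi by 0.87 ± 0.07 (adjusted p = 3.22e-09), in 12 of 12 cultures, at 38.4 to 66.0 CPM against 25.4 to 36.7 CPM in Fib. Cyp2b10 was higher in Epi by 0.74 ± 0.10 (adjusted p = 1.95e-06) and Cyp2s1 by 0.69 ± 0.17 (adjusted p = 0.00135), each in 11 of 12 cultures. Cyp2f2 was at 0.71 ± 0.32 (adjusted p = 0.0569), higher in Epi in 12 of 12 cultures. It was called with mouse as a block (adjusted p = 0.000852), without mouse 2 (adjusted p = 0.0236), without EpiVeh of mouse 3 (adjusted p = 0.0349) and without FibVeh, FibTF or FibCSETF of mouse 2 (adjusted p = 0.0221, 0.0353 and 0.0316). Por was at -0.12 ± 0.06 (adjusted p = 0.0993, and 0.044 with the block), higher in Epi in 2 of 12 cultures. It was also called without mouse 1 (adjusted p = 0.0401), EpiVeh or EpiCSETF of mouse 2 (adjusted p = 0.0218 and 0.0221) or FibCSE of mouse 1 (adjusted p = 0.0117). Epcam, the marker used for the separation, differed by 1.52 ± 0.14, more than any member that was higher in Epi.

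**Figure D4:**
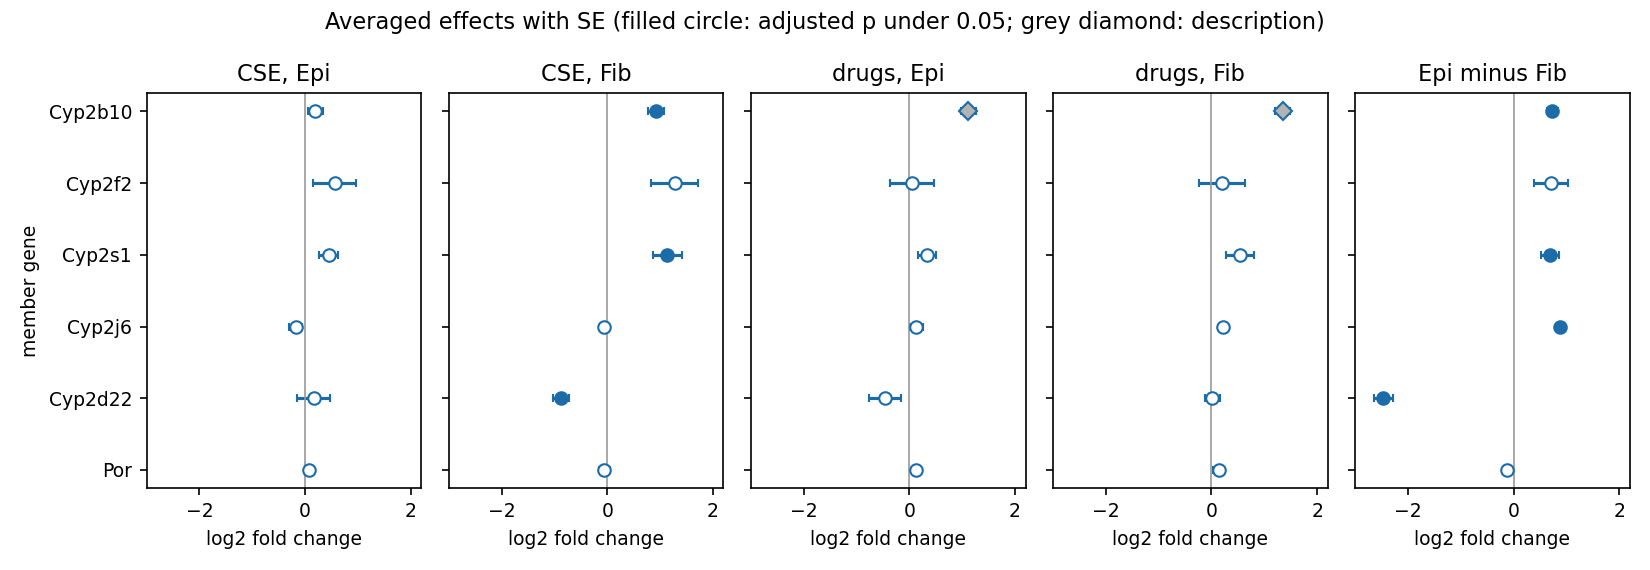
Log2 fold change with SE of the 6 tested members for CSE and for drugs, each averaged over the other treatment in Epi and in Fib, and for Epi minus Fib. Filled circles had an adjusted p under 0.05, open circles did not, and grey diamonds are the drug effects that chose Cyp2b10, at 1.12 in Epi and 1.35 in Fib.

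Of the other 50 genes named Cyp2 and a letter, 3 reached a mean of 1 CPM in any group, 47 stayed below, and 14 of those had 0 counts in every library. Cyp2c55 averaged 12.1 to 18.1 CPM in the Fib groups against 2.02 to 3.87 CPM in the Epi groups, with an Epi minus Fib log2 fold change of -2.47 ± 0.23 (adjusted p = 1.73e-08 by edgeR). Cyp2u1, which acts on fatty acids, was also lower in Epi, at -1.83 ± 0.16 (adjusted p = 6.35e-09), and Cyp2j9 was higher, at 1.15 ± 0.21 (adjusted p = 6.48e-05). For these 3 genes the averaged effects of CSE and drugs were not called in either fraction. Cyp2b13 and Cyp2b9, the nearest relatives of Cyp2b10 by name and place, averaged at most 0.0413 and 0.0690 CPM in a group. Of the neighbours on the other side, looked up after the other results were known, Axl, Hnrnpul1, Ccdc97 and Tgfb1 were not called for CSE or for drugs, averaged, in either fraction. In Fib their averaged effects of CSE ran from -0.17 for Axl to 0.00 for Hnrnpul1, beside 0.93 for Cyp2b10 and 1.14 for Cyp2s1.

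Genes of xenobiotic sensing and metabolism outside the family were followed as lists, beginning with CSE in Fib, averaged over drugs. Of 14 tested receptors and partner factors 1 rose there, the forkhead factor Foxa2 (1.34 ± 0.32, adjusted p = 0.0468 by edgeR), with a median of 0.16 over the list. Of 16 tested targets of CAR and PXR, 3 rose and 1 fell, with a median of 0.44. They included the glutathione transferase Gstt1 (2.13 ± 0.23, adjusted p = 0.00273), the transporter Abcc3 (0.77 ± 0.16, adjusted p = 0.0284) and, lower, the efflux pump Abcb1b (-0.69 ± 0.11, adjusted p = 0.0122). Of 20 other phase 1 enzymes, 3 rose and 1 fell, with a median of 0.70: Pon1, an esterase (3.51 ± 0.54, adjusted p = 0.0101), and Aldh1a7 (1.57 ± 0.36, adjusted p = 0.0428), which is also on the club cell and CAR lists, rose, and the epoxide hydrolase Ephx2 (-0.38 ± 0.08, adjusted p = 0.0306) fell. Of 6 tested targets of the aryl hydrocarbon receptor 1 rose, Cyp1b1 (0.50 ± 0.12, adjusted p = 0.0441). In that contrast 4.01% of all genes were called and their median was 0.02.

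With drugs in Fib, averaged over CSE, 0 of 14 receptors, 0 of 16 CAR and PXR targets, 0 of 17 electron carriers and heme enzymes, 0 of 20 phase 1 enzymes and 0 of 6 aryl hydrocarbon receptor targets were called by edgeR. At an unadjusted p under 0.05 these counts were 3, 4, 1, 1 and 1, beside 14.9% of all genes at that level. The smallest p in each belonged to Foxa1 (0.37 ± 0.11, adjusted p = 0.179), Abcc3 (0.78 ± 0.16, adjusted p = 0.104), Cyb5r3 (-0.27 ± 0.06, adjusted p = 0.107), Pon1 (-1.20 ± 0.52, adjusted p = 0.313) and Cyp1b1 (0.31 ± 0.12, adjusted p = 0.253). The receptor of Cyp2b10 in liver, Nr1i3, named here after its values were seen, was at -0.72 ± 0.36 (adjusted p = 0.376). Of 18 tested cyclic AMP and CREB targets, 3 rose with drugs: the growth factor gene Areg (0.67 ± 0.07, adjusted p = 0.0094), the nuclear receptor gene Nr4a2 (0.90 ± 0.11, adjusted p = 0.0235) and the phosphatase gene Dusp1 (0.54 ± 0.08, adjusted p = 0.04). Of all genes, 0.109% were called in this contrast, and the list's median was 0.20, against 0.00 for all genes. After CSE in Fib, 4 members of that list rose and 1 fell, beside 4.01% of all genes called, led by Fos (0.76 ± 0.13, adjusted p = 0.0133), Areg (-0.38 ± 0.07, adjusted p = 0.0195) and Nr4a2 (0.53 ± 0.11, adjusted p = 0.0278).

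In Epi no gene of these lists was called by edgeR for CSE or for drugs, averaged, beside 0.00554% of all genes in either contrast. For CSE, 4 of 14 receptors, 5 of 15 CAR and PXR targets, 0 of 17 electron carriers, 6 of 20 phase 1 enzymes, 4 of 18 cyclic AMP targets and 1 of 5 aryl hydrocarbon receptor targets had an unadjusted p under 0.05, beside 8.38% of all genes. Smallest in p were Ahr (0.21 ± 0.07, adjusted p = 0.501), Gstt1 (1.34 ± 0.32, adjusted p = 0.264), Alas1 (0.24 ± 0.11, adjusted p = 0.618), Pon1 (2.03 ± 0.43, adjusted p = 0.181), Areg (-0.35 ± 0.07, adjusted p = 0.167) and Aldh3a1 (0.51 ± 0.15, adjusted p = 0.423). For drugs these counts were 2, 1, 0, 3, 8 and 0, beside 6.31% of all genes, and the genes were Nr3c1 (-0.16 ± 0.05, adjusted p = 0.637), Abcc3 (0.46 ± 0.14, adjusted p = 0.667), Blvrb (0.15 ± 0.07, adjusted p = 0.791), Pon1 (-1.64 ± 0.43, adjusted p = 0.594), Nr4a2 (0.76 ± 0.11, adjusted p = 0.147) and Cyp1b1 (0.15 ± 0.12, adjusted p = 0.867).

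Between the fractions, 6 of 14 receptors and partners were higher and 4 lower in Epi, led by Foxa1 (1.16 ± 0.08, adjusted p = 2.78e-10) and Ahr (0.77 ± 0.08, adjusted p = 7.85e-08), both higher, and Cebpb (-0.53 ± 0.07, adjusted p = 6.02e-07), lower. Of 16 CAR and PXR targets 7 were higher in Epi, among them Cyp3a13 (1.10 ± 0.12, adjusted p = 7.57e-08) and Abcc3 (1.00 ± 0.11, adjusted p = 1.98e-07), and 2 lower, among them Abcb1b (-1.92 ± 0.13, adjusted p = 5.45e-10). Of 17 electron carriers and heme enzymes 5 were higher and 8 lower, led by 3 lower genes, Hmox1 (-1.64 ± 0.09, adjusted p = 6.13e-11), the biliverdin reductase Blvrb (-0.67 ± 0.05, adjusted p = 8.26e-10) and the heme-binding Pgrmc2 (-0.35 ± 0.03, adjusted p = 1.56e-09). Of 20 phase 1 enzymes 10 were higher, led by the oxygenases Fmo2 (0.95 ± 0.10, adjusted p = 6.08e-08) and Fmo5 (0.85 ± 0.15, adjusted p = 4.39e-05), and 4 lower, led by Ephx2 (-0.53 ± 0.07, adjusted p = 9.01e-07). Of 18 cyclic AMP targets 10 were higher, led by Areg (0.55 ± 0.05, adjusted p = 1.28e-08) and Fos (0.84 ± 0.08, adjusted p = 2.15e-08), and 3 lower, led by the phosphodiesterase Pde10a (-2.66 ± 0.21, adjusted p = 2.18e-09). Of 7 aryl hydrocarbon receptor targets 1 was higher, Cyp1b1 (0.76 ± 0.09, adjusted p = 3.03e-07), and 3 lower, led by Aldh3a1 (-0.36 ± 0.12, adjusted p = 0.01) and Tiparp (-0.26 ± 0.09, adjusted p = 0.0158). The background of calls in this contrast was 68.9%, as given above. Of the 59 Cyp genes outside Cyp2, 24 were tested in Fib. There 3 rose and 1 fell after CSE, averaged over drugs, beside 1.83% of all genes higher and 2.18% lower. For drugs 0 were called, beside 0.109% of all genes averaged over CSE.

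Genes with the pattern most like Cyp2b10 were found from log2 CPM, with the mean of the 4 libraries of each mouse and fraction subtracted, over 24 libraries and 11290 candidate genes. The values share libraries, depth and the share of epithelial RNA, so the correlations are a description. The highest Pearson r was 0.95 for Tnfrsf21, a death domain receptor (0.96 within Epi and 0.95 within Fib), followed by Aplp1 (0.94), a relative of the amyloid precursor protein, and Mak (0.92), a kinase of cilia. Cxcl17 (0.92), a mucosal chemokine, Prss8 (0.92), an epithelial membrane protease, Slc35d1 (0.91), a nucleotide sugar transporter, Pon2 (0.91), a lactonase, and Fut2 (0.90), a fucosyltransferase, completed the first 8. Their drug effects were smaller than that of Cyp2b10, from 0.21 for Pon2 to 0.83 for Fut2 in Fib and from 0.13 to 0.73 in Epi, averaged over CSE. Tnfrsf21 averaged 76.9 CPM in FibVeh, 90.1 in FibCSE, 101 in FibTF and 137 in FibCSETF. On the same scale Cyp2s1 had an r of 0.80 with Cyp2b10, Cyp2f2 0.58, Por 0.54, Cyp2j6 0.45 and Cyp2d22 -0.45.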

How the data were processed

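RNA sequencing of polyA RNA was done on an Illumina NovaSeq instrument, per the labels' protocols. Reads were trimmed with Trimmomatic 0.30 and the study's own tests used DESeq2, per the submitters' processing notes. The values are raw counts per gene, deposited by the authors as 1 table, and no source here states the aligner, counter or strand setting. The labels name a mouse build by the name of a human one, so no gene position is taken from the table. Library totals ran from 31832267 to 47534709 counts, all 24 columns matched a sample, and 5941 features had no gene symbol (0.574 to 1.06% of counts). No 2 replicates held identical values.

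Counts were tested in R 4.3.3 with edgeR 4.0.16 (TMM, filterByExpr by group, robust quasi-likelihood F test, Benjamini-Hochberg adjustment over all genes tested, threshold 0.05), which gives every adjusted p in the text unless DESeq2 is named. Within a fraction the model had 1 mean for each of the 4 treatments, over 12 libraries. Contrasts between fractions used 8 group means over 24 libraries, so libraries of the same culture were treated as separate there. SE is the log2 fold change divided by the square root of F. CPM on the log2 scale for pattern likeness used a prior count of 2, and candidates had a mean of at least 5 CPM in a group. The tests were checked on simulated counts that had the same spread for every gene and no differences between mice. That check does not show how the tests behave at the spread of these libraries. Alternatives were edgeR with DESeq2's size factors, no filter, DESeq2 1.42.0, mouse as a block, marker covariates, and leaving out each mouse or library. The labels give the mouse as batch, so its number pairs the libraries. Deviations from the group means correlated between libraries of the same mouse at -0.0619 to 0.700 within a fraction (18 pairs in each).

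The named genes were the 8 members, the expressed Cyp2 genes, the 8 nearest patterns and, from each list, the 3 called genes with the smallest p or, with none called, the single smallest. The members and lists were chosen with earlier results of these data known. Near-identical genes were looked for by shared 100-base stretches of GENCODE M21 transcripts (GRCm38) in place of protein identity.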

Additional observations from a re-analysis of the deposited data

How the results depend on the processing

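Every setting here is an alternative to the edgeR fits of the report. DESeq2 called more of all genes than edgeR did in the contrasts where its member count differed. In Epi its share was 0.0832% against 0% for drugs after CSE and 0.344% against 0.00554% averaged. In Fib it was 3.29% against 0.104% for CSE without drugs and 2.17% against 0% under drugs. For the other settings the share of all genes is not given here, so nothing is read from those member counts. Cyp2b10 was chosen on the drug contrasts, so its calls there are listed to show how they vary and support nothing. In Epi, members called for drugs went from 0 to 1, Cyp2b10, with DESeq2 both after CSE and averaged over CSE. The averaged count was also 1 without the low-count filter, with mouse as a replicate block, and with the fibroblast covariate with or without the block, and ran from 0 to 1 over leave-outs (1 without EpiCSE of mouse 1). In Fib, CSE without drugs went from 0 to 1 member, Cyp2d22, with DESeq2 and with the epithelial covariate with or without the block. CSE under drugs went from 0 to 1 without the filter, 3 with DESeq2 and 1 with the block. Drugs after CSE and averaged went from 1 to 0 with the epithelial covariate with or without the block, and from 0 to 1 over leave-outs. The member concerned was Cyp2b10. After CSE it was lost without any 1 mouse, FibCSE of mouse 1 or 2, or FibCSETF of mouse 2 or 3 (log2 fold changes 1.70 to 1.93). Averaged, it was lost without mouse 2 or 3 or FibVeh of mouse 3 (log2 fold changes 1.34 to 1.42). CSE averaged ran from 0 (without mouse 3) to 3 over leave-outs. The mouse block changed the call of Cyp2b10 for averaged drugs in Epi and for CSE under drugs in Fib, of Cyp2f2 for averaged CSE in Fib, and of Cyp2f2 and Por between fractions, and no other call.

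Some log2 fold changes that were not called changed sign. With the fibroblast covariate, without and with the block, Epi values were -0.19 and -0.27 for Cyp2d22 after CSE, and with drugs -0.0305 and -0.0297 for Cyp2j6 and 0.0308 and 0.15 for Cyp2d22. With the epithelial covariate, Fib values with drugs were -0.53 and -0.30 for Cyp2f2, -0.11 and -0.0885 for Cyp2s1 and, without the block, -0.0016 for Por. Leave-outs ranged from -0.30 to 0.12 for Cyp2b10 after CSE without drugs, -0.0837 to 0.47 for Cyp2d22 after CSE and -0.28 to 0.45 for Cyp2f2 with drugs in Epi. In Fib they ranged from -0.16 to 0.077 for Por after CSE, -0.10 to 0.54 for Cyp2f2 with drugs and -0.0879 to 0.11 for Cyp2d22 with drugs. Of 1004 refitted log2 fold changes, 915 kept their direction and side of the threshold, and the causes of the changes were not tested. Depth limits Cyp2a5, Cyp2e1 and the other low Cyp2 genes, and 3 mice limit every contrast.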
